A study of Mus musculus with 3 samples.

Results

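Keratins, claudins and other genes of epithelial cell junctions were read in 3 mouse RNA-seq libraries of sorted Ly6G-positive cells. The set holds the genes listed under symbols that begin with Krt, Cldn, Dsg, Pkp, Tjp or Gja, Gjb and Gjc followed by a number, together with Dsc1, Dsc2, Dsc3, Dsp, Ocln, Epcam and Cdh1. It comprises 114 of the 23234 genes in the tables. Members were chosen by symbol, without regard to their values. All libraries came from wild-type C57BL/6J mice, 6 to 15 weeks old, that had received lipopolysaccharide (LPS, a bacterial cell wall component) into both nostrils, 10 µg in 10 µL of PBS. Nasal double-positive cells (DP) were CD45+Ly6G+SiglecF+ and came from noses on day 2 after LPS. Nasal neutrophils were CD45+Ly6G+SiglecF- and came from noses on day 1, and blood neutrophils shared that gate and day but came from peripheral blood. Each group was 1 library, no untreated library was included, and the labels do not say how many mice gave each. No difference below therefore has a replicate error, a test or a p-value, and gate and day cannot be told apart between DP and nasal neutrophils.

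Keratins are intermediate filament proteins that assemble from a type I and a type II partner. Simple epithelia use mainly keratins 8 and 18, the basal cells of layered epithelia keratins 5 and 14, and hair its own set. Claudins and occludin form the seal of tight junctions, Tjp proteins tie them to actin, E-cadherin (Cdh1) holds adherens junctions, desmosomes anchor keratins to the membrane, and connexins form gap junctions. In the nose these genes are known for respiratory epithelium, for glands and, with keratins 8 and 18, for the sustentacular cells that support olfactory neurons. Epithelial cells do not carry CD45, which every gate required.

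Values are FPKM, which divides a gene's fragments by its transcript length and the library's size, so levels of different genes in a library can be set side by side. The files give no counts. Estimated from steps between low values, DP had about 54600000 fragments, nasal neutrophils about 12800000 and blood neutrophils about 53900000. A transcript of 1 kb at 1 FPKM then had about 55, 13 and 54 fragments. Of the sort genes, Ptprc (CD45) had 445.1 FPKM in the DP library, 136.7 in that of nasal neutrophils and 718.8 in that of blood neutrophils, and Siglec5, the tables' name for SiglecF, had 167.8, 9.92 and 18.7. The neutrophil gene Csf3r stood at 581 FPKM in DP, at 607 in nasal neutrophils and at 1180 in blood neutrophils. S100a9, another neutrophil gene, had 3233, 12277 and 52238 FPKM in that order. The log2 ratio of DP over nasal neutrophils was below 0 for 6 of 6 neutrophil markers, from -3.3 for Fpr1 to -0.06 for Csf3r. All 6 neutrophil markers with a row were above 0 in every library except S100a8, which was listed at 0 in blood beside S100a9 at 52238 FPKM. An exact 0 in these tables can thus be a failed estimate. Ratios of single genes against a 0 are therefore left out, and counts of called members against blood say how many were listed at 0.

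The set was present in both nasal libraries and nearly empty in blood apart from a few genes. DP had 33 of the 114 genes (28.9%) at 1 FPKM or more, nasal neutrophils 35 (30.7%) and blood neutrophils 6 (5.3%). Over the whole table the shares were 48.6%, 45% and 33.2%. DP listed 37 members at 0 (32.5%), nasal neutrophils 32 (28.1%) and blood neutrophils 81 (71.1%), and 26 were at 0 in all 3. Of all genes in the tables, 21.1%, 23.5% and 38.3% were at 0 in that order. The summed level of the set was 696.2 FPKM for DP, 483.3 for nasal and 87.7 for blood neutrophils, or 0.109%, 0.078% and 0.013% of all FPKM. The nasal sums were mostly simple epithelial keratins (59% of the set's FPKM in DP, 49.1% in nasal neutrophils) and claudins (28.2% and 31.5%). In blood, 62.4% came from a single gene, Krt80. In these sorted bulk samples, fewer cells of a type and less RNA per cell cannot be told apart.

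**Figure D1:**
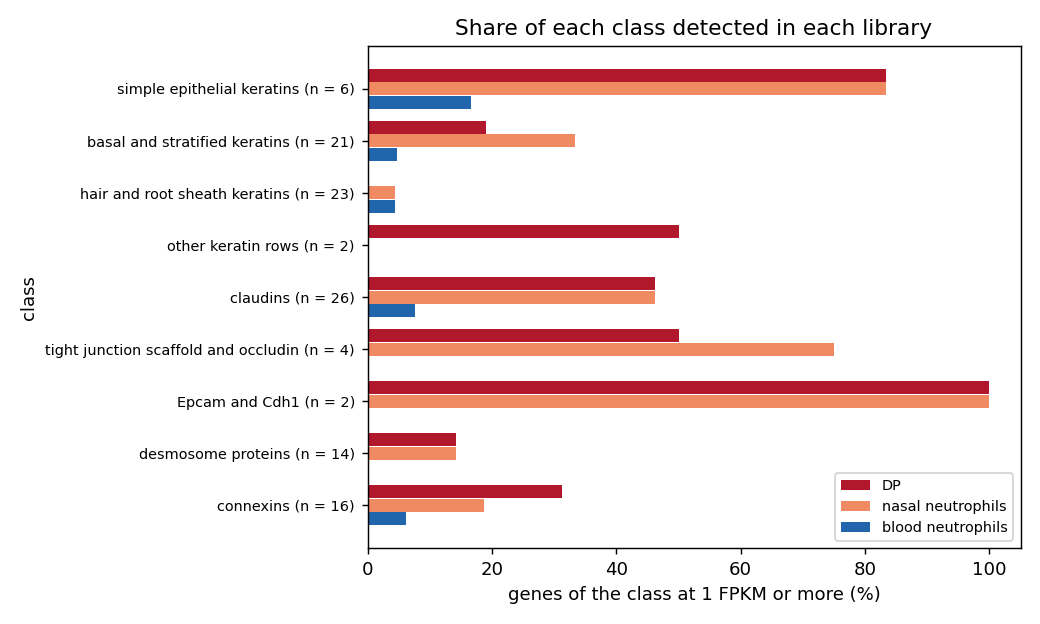
Share of each class of genes at 1 FPKM or more (x axis, percent) in DP, nasal neutrophils and blood neutrophils, 1 library each, with the number of genes per class beside its name. Simple epithelial keratins reached 83.3% in both nasal libraries and 16.7% in blood, whereas hair and root sheath keratins reached 0%, 4.3% and 4.3%.

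Among the 6 keratins of simple epithelia, Krt18, the type I partner of Krt8, was the most abundant member in both nasal libraries. It stood at 289.7 FPKM in DP, at 132 in nasal neutrophils and at 0.327 in blood neutrophils. Krt8, the type II partner, stood at 68.1, 76.4 and 0.712 FPKM in that order. Krt18 was thus 2.2-fold higher in DP than in nasal neutrophils while Krt8 was near equal, both as plain FPKM ratios. Within a library the level of Krt18 over that of Krt8 was 4.25 in DP and 1.73 in nasal neutrophils, a comparison that does not depend on how the libraries were scaled. Together the pair made up 51.4% of the set's FPKM in DP and 43.1% in nasal neutrophils. Krt23, a type I keratin, followed the pattern of Krt18, at 43.2 FPKM in DP, at 18.8 in nasal neutrophils and at 0 in blood. Krt19, a type I keratin of ducts and simple epithelia, was lower and turned the other way between the nasal libraries, at 3.66, 5.65 and 0.684 FPKM. Krt7, a type II keratin of glands and ducts, stood at 6.35, 4.62 and 2.23 FPKM and so was 2.85-fold higher in DP than in blood. Krt20, known from the gut and bladder, was listed at 0 in all 3 libraries.

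**Figure D2:**
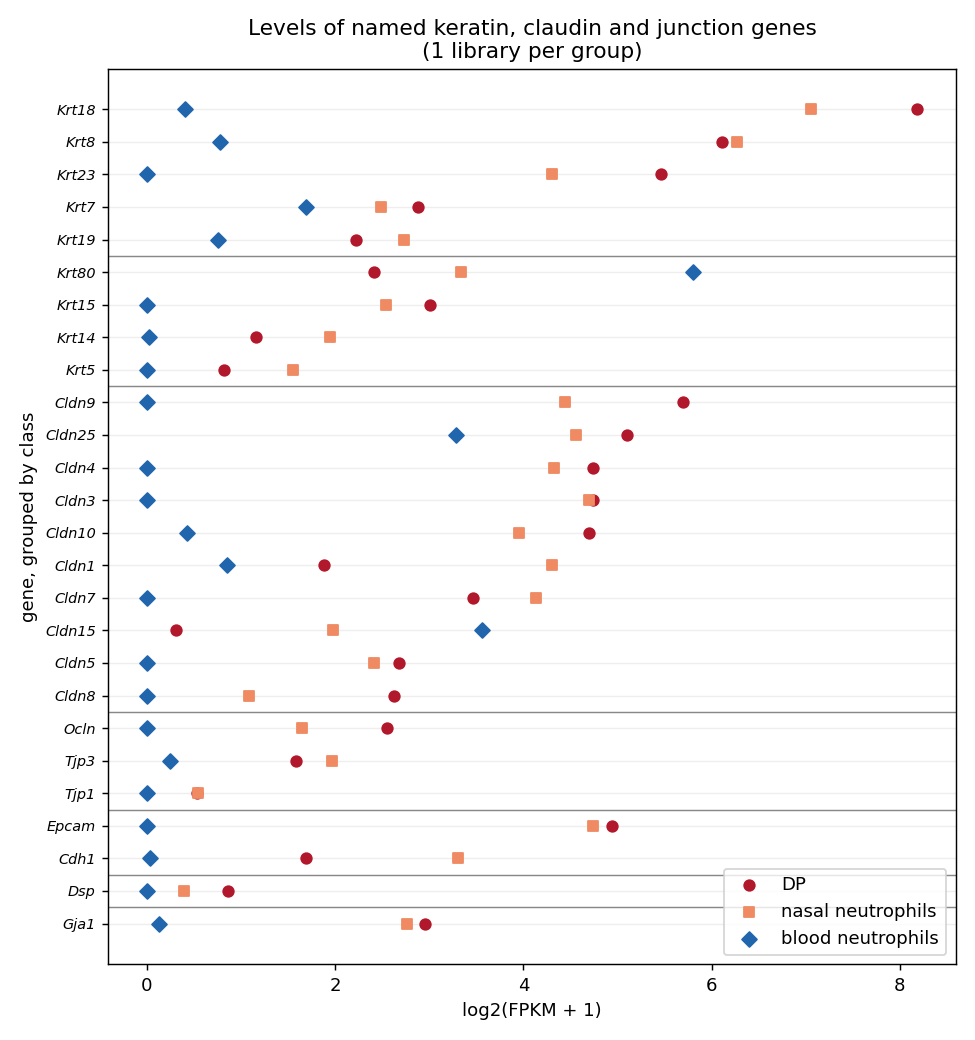
Level of each of 26 named genes (x axis, log2(FPKM + 1)) in the 3 libraries, 1 point per library, with lines between classes of genes. Krt18 lies farthest right in both nasal libraries, while Krt80 and Cldn15 are the named genes whose blood point lies to the right of both nasal points.

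Krt8 and Krt18 are neighbours in the genome with no coding gene between them, and so are Cldn3 and Cldn4, which were also near equal to each other in both nasal libraries. The promoters of these pairs and of Epcam are printed because the 5 genes shared the pattern of high nasal and low blood levels, and that of Cldn15 because it had the opposite pattern. Each is the RefSeq window from 250 bases before to 50 bases after the start site, in GRCm38.p6 (the files used mm9), read 5′ to 3′ on the gene's strand. Capitals mark CACCTG or its reverse complement CAGGTG, the E-box form that Snail-type repressors of Cdh1 are known to bind.
Krt8 (chr15:102004293-102004592, minus strand): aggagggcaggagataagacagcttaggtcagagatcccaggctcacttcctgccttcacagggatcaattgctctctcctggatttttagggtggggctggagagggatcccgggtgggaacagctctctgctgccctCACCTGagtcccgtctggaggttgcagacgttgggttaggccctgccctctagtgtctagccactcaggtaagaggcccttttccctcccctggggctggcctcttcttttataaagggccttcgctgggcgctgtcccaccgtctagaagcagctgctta
Krt18 (chr15:102027966-102028265, plus strand): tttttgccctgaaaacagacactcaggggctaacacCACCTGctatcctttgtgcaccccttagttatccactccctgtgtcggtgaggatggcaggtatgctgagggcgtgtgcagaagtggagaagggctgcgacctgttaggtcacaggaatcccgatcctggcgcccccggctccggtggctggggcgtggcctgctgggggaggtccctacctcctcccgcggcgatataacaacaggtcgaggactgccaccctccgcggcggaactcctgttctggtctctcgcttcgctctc
Cldn3 (chr5:134985964-134986263, plus strand): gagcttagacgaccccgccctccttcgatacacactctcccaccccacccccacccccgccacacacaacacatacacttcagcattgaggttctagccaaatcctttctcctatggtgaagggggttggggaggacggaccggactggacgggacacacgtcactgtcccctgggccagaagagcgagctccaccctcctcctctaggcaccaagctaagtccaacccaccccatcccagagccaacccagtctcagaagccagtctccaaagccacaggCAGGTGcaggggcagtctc
Cldn4 (chr5:134946885-134947184, minus strand): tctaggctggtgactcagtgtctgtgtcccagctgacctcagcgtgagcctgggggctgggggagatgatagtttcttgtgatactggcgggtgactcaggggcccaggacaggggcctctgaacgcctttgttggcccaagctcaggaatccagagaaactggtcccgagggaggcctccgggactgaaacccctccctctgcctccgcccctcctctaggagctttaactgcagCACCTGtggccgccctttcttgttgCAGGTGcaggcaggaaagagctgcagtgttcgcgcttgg
Epcam (chr17:87635729-87636028, plus strand): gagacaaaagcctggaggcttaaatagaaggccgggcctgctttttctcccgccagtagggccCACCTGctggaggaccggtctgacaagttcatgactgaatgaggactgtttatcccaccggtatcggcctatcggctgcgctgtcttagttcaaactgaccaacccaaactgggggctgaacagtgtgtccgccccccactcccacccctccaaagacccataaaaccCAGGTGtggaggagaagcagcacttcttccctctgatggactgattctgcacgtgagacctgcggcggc
Cldn15 (chr5:136967619-136967918, plus strand): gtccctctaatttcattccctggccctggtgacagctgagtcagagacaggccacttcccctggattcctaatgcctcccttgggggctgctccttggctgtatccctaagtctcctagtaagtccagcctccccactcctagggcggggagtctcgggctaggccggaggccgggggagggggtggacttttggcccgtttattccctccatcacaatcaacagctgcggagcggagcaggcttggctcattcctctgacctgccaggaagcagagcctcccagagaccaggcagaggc
Matches of this motif numbered 1 in Krt8, 1 in Krt18, 1 in Cldn3, 2 in Cldn4, 2 in Epcam and 0 in Cldn15. Other members with high nasal levels did not all hold it: it numbered 1 in Krt23 and in Krt7, 0 in Cldn1, 0 in both windows of Cldn10, and 0 in 1 window of Cldn7 and 2 in its other. By symbol, 70 of the 114 members had 86 such windows. Krt80, which was also highest in blood, had none, so Cldn15 is the only gene of that pattern shown. Cldn9, the highest claudin in DP, had no window either. CACCTG on either strand lay in 29 of the 86 (33.7%), against 20.2% of all 32851 windows. These belonged to 27 of the 70 members, of which 13 averaged at least 1 FPKM over the libraries, as did 22 of the 70. Krt39, Krt40 and Krt71 held it and were listed at 0 FPKM in every library. AACCGGTT, like the core bound by Grainyhead-type factors of epithelia, lay in 0 of the 86 (0.146% of all), and the looser AACCNGTT, which includes it, in 2, those of Cldn5 and Gjb6 (2.3%, against 2.09% of all). GGGCGG or its reverse complement CCGCCC, the GC box, lay in 26 of the 86 (30.2%), against 35.7% of all. These are letter matches in short windows and say nothing of binding. CACCTG was searched after the levels had been seen.

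Keratins of basal and layered epithelia were low in the nose. Of 21, the number at 1 FPKM or more was 4 for DP, 7 for nasal and 1 for blood neutrophils. Krt15, a basal cell keratin, was highest in DP, at 7.04 FPKM, with 4.8 in nasal neutrophils and 0 in blood. The basal pair was lower: Krt5 stood at 0.761 FPKM in DP and at 1.93 in nasal neutrophils, and Krt14 at 1.23 and 2.85, with Krt5 at 0 and Krt14 at 0.012 in blood. Krt17, known from hair follicles and injured skin, stood at 0.883, 3.18 and 0 FPKM. Krt2, of the outer skin, was at 1.95 FPKM in nasal neutrophils and at 0 in DP and blood. Krt10, of suprabasal skin, was near equal in the nasal libraries at 2.39 and 2.56 FPKM. Krt5, Krt14 and Krt17 were thus each lower in DP than in nasal neutrophils, where they rest on about 54, 62 and 63 fragments. Krt2 is not counted with them because its DP value was 0. Krt15 was higher in DP as deposited (log2 ratio 0.47) and not with ratios centred on the median of all genes (-0.1). Krt6a and Krt6b, near-identical copies between which reads may have been divided, were at 0.53 FPKM or less in every library. Of 23 hair and root sheath keratins, 22 stayed under 1 FPKM in all 3 libraries. The exception was Krt86, at 0.587 FPKM in DP, at 1.56 in nasal neutrophils and at 1.94 in blood, where reads may be divided with the similar Krt81 and Krt83.

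Krt80, a type II keratin of many epithelia, was highest in blood, as were 5 other members: Cldn15, Gjc3, Krt86, Krt81 and Krt222. It stood at 54.7 FPKM in blood neutrophils, 9.14 in nasal neutrophils and 4.33 in DP. The blood level was thus 5.99-fold that of nasal neutrophils and 12.6-fold that of DP as FPKM ratios, and it rests on about 9043 fragments. No other keratin exceeded 2.23 FPKM in blood. In the order of the RefSeq map, Krt80 and Krt7 open the keratin cluster of chromosome 15, and Krt8 and Krt18 close it. Of the 22 keratin genes of that cluster with a row of that name, 7 reached 0.1 FPKM in blood: Krt80, Krt7, Krt81, Krt86 and Krt83 at the first end, and Krt8 and Krt18 at the other. The 15 between them were listed at 0.

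**Figure D3:**
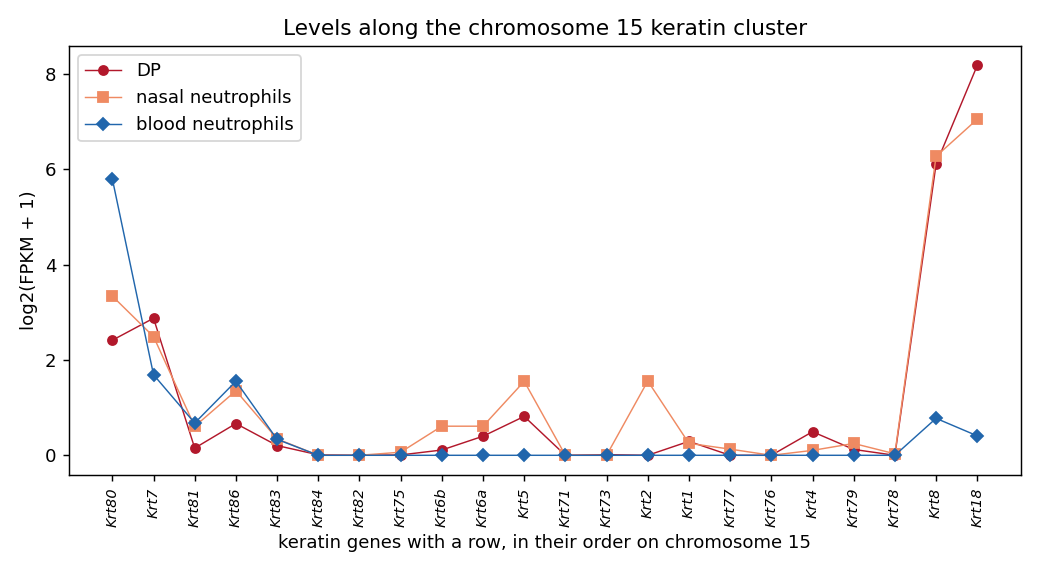
Levels (y axis, log2(FPKM + 1)) of the 22 keratin genes with a row, in their order along the chromosome 15 cluster (x axis), 1 point per gene and library. Blood neutrophils show Krt80 at 54.7 FPKM and lie at 0 over the middle of the cluster, while both nasal libraries peak at Krt8 and Krt18.

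Claudins comprised many low genes and a group of nasal ones. Of 26, 12 reached 1 FPKM in each nasal library and 2 in blood. Cldn3 and Cldn4, barrier-forming claudins of simple epithelia, stood at 25.7 and 25.7 FPKM in DP and at 24.9 and 19.1 in nasal neutrophils. Both were listed at 0 in blood. Cldn9 was the highest claudin in DP, at 51 FPKM, against 20.8 in nasal neutrophils and 0 in blood. Cldn10, which forms ion-selective channels, stood at 25 FPKM in DP, at 14.5 in nasal neutrophils and at 0.344 in blood. Cldn7 was lower in DP than in nasal neutrophils, at 10 and 16.5 FPKM, and at 0 in blood. Cldn8 was higher in DP, at 5.15 against 1.12 FPKM, and so was the cation channel Cldn2, at 3.49 against 0.645, and both were at 0 in blood.

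Cldn1, the claudin of the skin barrier, showed the largest gap between the nasal libraries among members on the log2(FPKM + 1) scale. It stood at 2.68 FPKM in DP, at 18.7 in nasal neutrophils and at 0.801 in blood, 6.98-fold higher in nasal neutrophils than in DP as an FPKM ratio. Cldn15, a cation channel best known from the gut, was highest in blood, at 10.8 FPKM, with 2.93 in nasal neutrophils and 0.235 in DP, the last resting on about 24 fragments. Cldn5, the claudin of endothelium, stood at 5.42, 4.33 and 0 FPKM. The 6 endothelial marker genes summed to 8.79, 12.2 and 5.92 FPKM in that order, with Pecam1 at 4.06, 7.73 and 5.9 and Cdh5 at 0.453, 1.22 and 0. The row named Cldn25 stood at 33.4, 22.7 and 8.73 FPKM. RefSeq gives that name as an older symbol of Cldnd1 and of Cldn25-ps, and which of them the row measures was not settled. Without Cldn15 and Cldn25, the other 24 claudins summed to 162.5 FPKM in DP, to 126.4 in nasal neutrophils and to 1.83 in blood.

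Epcam, an adhesion molecule that marks most epithelia, was near equal in the nasal libraries, at 29.7 FPKM in DP and at 25.7 in nasal neutrophils, with a value of 0 in blood. Cdh1, at 2.23 FPKM in DP and 8.91 for nasal neutrophils, differed 4.0-fold as an FPKM ratio and stood at 0.02 FPKM in blood.

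Occludin (Ocln), a membrane protein of tight junctions, stood at 4.86 FPKM in DP, at 2.14 in nasal neutrophils and at 0 in blood. The scaffold genes were low. Tjp1 was at 0.451 and 0.458 FPKM in DP and nasal neutrophils and at 0 in blood. Tjp3, the member restricted mostly to epithelia, stood at 2, 2.92 and 0.187 FPKM. Tjp3 was lower in DP than in nasal neutrophils, whereas Ocln was higher.

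The set's desmosome genes, those under Dsg, Dsc, Dsp and Pkp symbols, were scarce in every library. Of desmosome genes outside the set, Jup stood at 8.17, 4.26 and 0.836 FPKM in DP, nasal neutrophils and blood neutrophils, and Perp at 9.99, 10.7 and 0.141. Of 14, each nasal library had 2 at 1 FPKM or more and blood had none, where the highest was Pkp3 at 0.317 FPKM. Those of DP were the desmosomal cadherins Dsc2 (1.02 FPKM) and Dsc3 (1.91), and in nasal neutrophils Dsc2 (1.1) and the plaque gene Pkp2 (1.72). Desmoplakin (Dsp), which links the plaque to keratins, stood at 0.82 FPKM in DP, at 0.318 in nasal neutrophils and at 0.004 in blood. The class summed to 6.71 FPKM in DP and 6.77 in nasal neutrophils, beside 410.9 and 237.4 for the simple keratins. No desmosome gene of the set reached a mean of 1 FPKM over the libraries.

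Of 16 connexins, DP had 5 at 1 FPKM or more, nasal neutrophils 3 and blood neutrophils 1. At 0.1 FPKM or more the nasal order turned, with 9, 12 and 2. Gja1, a connexin of many cell types, was near equal in the nose at 6.78 and 5.78 FPKM and stood at 0.094 in blood. Gjb1, known from liver, glands and Schwann cells, stood at 4.64, 0.769 and 0 FPKM. Gjb2 turned the other way, at 1.42 in DP and 2.42 in nasal neutrophils. Gjc3, a connexin of myelinating glia, was highest in blood, at 3.48 FPKM against 1.69 in DP and 1.16 in nasal neutrophils. Markers of ensheathing glia and Schwann cells, a list of 6 genes, summed to 78.8 FPKM in DP, to 23.4 in nasal neutrophils and to 0.42 in blood, where 3 of the 6 were at 0.

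**Figure D4:**
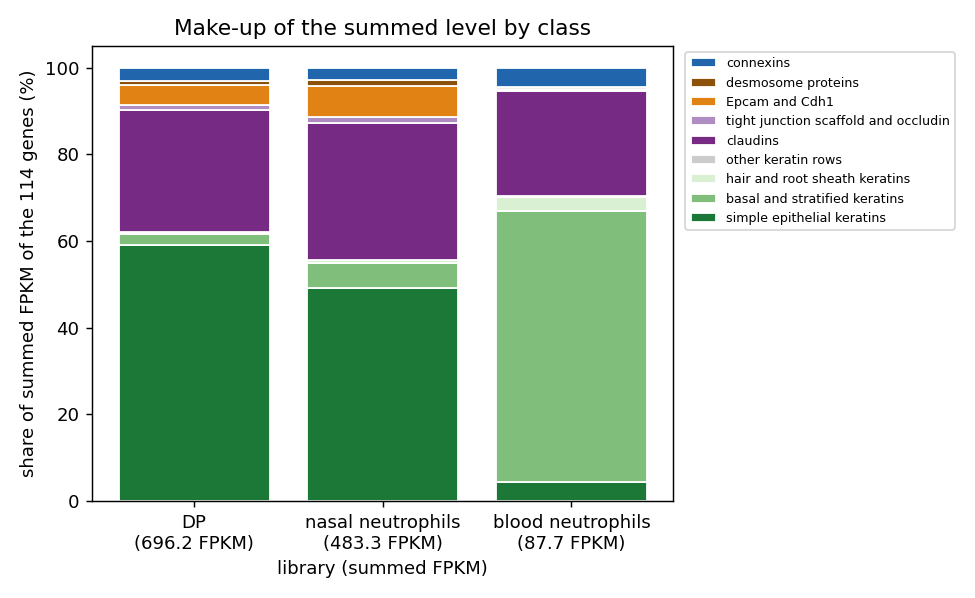
Share of the set's summed FPKM (y axis, percent) held by each class in each library, with the summed FPKM under the library's name. Simple epithelial keratins and claudins fill most of both nasal bars, and basal and stratified keratins, of which Krt80 is nearly all, fill 62.4% of the blood bar.

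The comparison of nasal with blood neutrophils holds the gate and the day fixed and changes the tissue. Simple keratins, Epcam, Cdh1 and most detected claudins were higher in the nose, and Krt80 was lower. Ratios were taken as log2(FPKM + 1), so those of low genes come out smaller than the plain ratio. A gene was called at a 4-fold difference, and only genes averaging at least 1 FPKM over the libraries were compared. Of the 114 members, 33 passed that filter. Among them 15 were at least 4-fold higher in nasal neutrophils, against 13.1% of all 10719 genes that passed, and 1, Krt80, was at least 4-fold lower, against 3.23%. The higher ones were 3 of 5 simple keratins, 2 of 5 basal and stratified keratins, 7 of 13 claudins, Epcam, Cdh1 and 1 of 5 connexins, and 9 of the 15 were listed at 0 in blood. The log2 ratio was 6.65 for Krt18, 5.5 for Krt8, 3.45 for Cldn1 and 3.28 for Cdh1. It was -2.46 for Krt80 and -1.58 for Cldn15. The median log2 ratio was 1.93 over the 33 members and 0.41 over all genes. Most members that passed did so through their nasal levels, so this count and median describe the levels and are no support for a difference. Without genes listed at 0 in either library, an alternative added after seeing the data, 18 members were left. Of these, 6 were at least 4-fold higher, against 11.1% of all genes left.

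Between DP and nasal neutrophils few members differed by 4-fold. Of the 33 members that passed, 1 was at least 4-fold higher in DP, against 8.42% of all genes, and Cldn1 was at least 4-fold lower, against 3.62%. With ratios centred on the median of all genes, which was 0.57, no member was at least 4-fold higher, against 3.4% of all genes. Cldn1 had a log2 ratio of -2.42. At 2-fold, 7 of the 33 members were higher in DP, against 33.6% of all genes, and 4 were lower, against 11.3%. Among the higher were Krt18 (1.13), Krt23 (1.16), Cldn9 (1.25), Cldn8 (1.54), Cldn2 (1.45) and Gjb1 (1.67). The lower were Cldn1, Cldn15 (-1.67), Cdh1 (-1.62) and Krt17 (-1.15). The median of the 33 members was 0.2, below the 0.57 of all genes. The sign of that median depends on the scaling: centred on all genes it was -0.37, and with upper-quartile scaling also -0.37. Relative to the median of all genes, Cldn1 stood at -3, Cldn15 at -2.25 and Cdh1 at -2.19.

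Short transcripts were higher in DP across the whole table, and the members were compared within lengths. For transcripts under 2000 nt the median log2 ratio was 0.91 over 4076 genes and 0.34 over 18 members. From 2000 to under 3000 nt it was 0.52 over 2460 genes and -0.07 over 5 members. For those of 3000 nt or more it was 0.31 over 4044 genes and 0.2 over 9 members. Among the long ones, Cldn1, Cdh1 and Krt80 (-0.93) were lower in DP, while Cldn2 and Ocln (0.9) were higher.

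**Figure D5:**
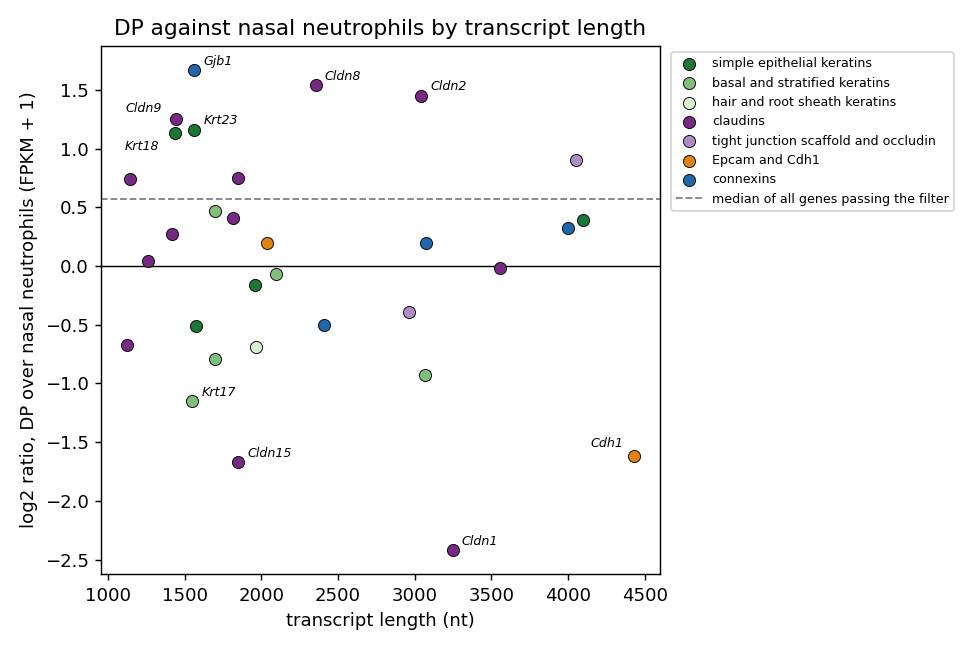
Log2 ratio of DP over nasal neutrophils (y axis, FPKM + 1) against transcript length (x axis, nt) for 31 of the members with a mean of 1 FPKM or more and a known length, 1 point per gene, coloured by class. The dashed line is the median of all genes, 0.57, and Gjb1, at 1.67, and Cldn1, at -2.42, are the highest and lowest points shown.

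DP set against blood neutrophils shares a library with each of the comparisons above, so its values are not separate evidence. Of the 33 members, 18 were at least 4-fold higher in DP, against 24.0% of all genes, and 13 of these were listed at 0 in blood. Krt80 and Cldn15 were at least 4-fold lower, against 3.57%, with log2 ratios of -3.38 and -3.25. Without genes listed at 0 in either library, 5 of 18 members were at least 4-fold higher, against 20.5% of all genes left. The log2 ratio was 7.77 for Krt18 and 5.33 for Krt8. The median was 2.39 over the members and 0.95 over all genes. Here too most members passed the filter through their nasal levels, so the count and median are no support for a difference. With no filter the median was 0.12 over all 114 members and 0.16 over all 23234 genes.

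Other junction and epithelial genes, listed by function and not by their values, were read in the same way. Of 28 partners of these junction proteins, 18 passed the filter. At least 4-fold higher were 2 of them (11.1%) in DP against nasal neutrophils, near the 8.42% of all genes, and 3 (16.7%) in nasal against blood neutrophils, near the 13.1% of all genes, and 0 were at least 4-fold lower in either. Those 2 were Jam3, a junctional adhesion molecule, at 30.5 FPKM in DP, at 4.26 in nasal neutrophils and at 2.65 in blood, and Ctnna1, alpha-catenin, at 81.2, 18 and 6.34. Vinculin (Vcl), at 3.85, 9.04 and 7.13 FPKM, and the nectin gene Pvrl4, at 0.373, 2.11 and 0.279, had the next largest gaps between the nasal libraries. Perp, of desmosomes, stood at 9.99, 10.7 and 0.141 FPKM. Pvrl2, another nectin, stood at 4.13, 5.17 and 0.095, and the polarity gene Crb3 at 7.81, 3.58 and 0.107. In nasal against blood neutrophils these last 3 were the genes past 4-fold, followed by Llgl2, a polarity gene, at 1.21, 3.13 and 0.138 FPKM. Of 14 epithelial transcription and splicing regulators, 6 passed, of which 3 were at least 4-fold higher in nasal than in blood neutrophils and 0 differed by 4-fold between the nasal libraries. Of 11 other epithelial surface genes, 9 passed, with 5 and 0 in the same order.

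Markers of cells other than neutrophils were read in the same libraries. The sums of their lists did not all move the same way between DP and nasal neutrophils, and single genes carried much of some sums. The 7 sustentacular genes summed to 1132 FPKM in DP, to 371.7 in nasal neutrophils and to 0.48 in blood, where 2 were at 0, with Cyp2g1 at 168, 120 and 0 and Cyp1a2 at 41.7, 22.7 and 0.01. The 8 olfactory neuron genes summed to 1919, 927.9 and 4.89 FPKM, with Omp at 244, 233.7 and 0 and Gng13 at 217, 47.3 and 0. All 7 sustentacular genes and 7 of the 8 olfactory neuron genes had more FPKM in DP than in nasal neutrophils. So did Krt18 and Krt23, whereas Krt8, Krt19, Cldn7 and Cdh1 had less. Of the 33 members compared, 19 had more in DP, and over all genes compared 69.3% did. The 8 secretory and gland genes summed to 1467, 1817 and 1011 FPKM, of which Lyz1 gave 88.85, 433.3 and 1010. Bpifa1 stood at 272.6, 38.2 and 0.113 and Bpifb1 at 12.8, 1.18 and 0, and 3 of the 8 had more in DP. The 6 ciliated cell genes summed to 32.4, 17.5 and 4.12 FPKM, of which Rsph1 gave 20.6, 7.47 and 4.12. Foxj1 stood at 0.361, 6.04 and 0 and Tekt1 at 9.8, 3.72 and 0, and 5 of the 6 had more in DP. Of 6 basal cell genes, Trp63 stood at 1.71, 0.42 and 0 FPKM. The list's sum, 119.9, 422.6 and 4.8, was nearly all Icam1 (108.6, 412 and 4.64), which leukocytes also express. The 6 fibroblast genes summed to 23.4, 13.3 and 0.02 FPKM, of which Dcn gave 21.7, 7.54 and 0.011. Only 2 of the 6 had more in DP, with Col1a1 at 0.953, 2.81 and 0.004 and Col1a2 at 0.361, 1.15 and 0.003. The part of such cells or their RNA in the keratin and junction values was not tested. The blood library, in which Krt80 and Cldn15 were highest, listed Epcam, Cldn3, Cldn4, Cldn7 and Ocln at 0, which can be failed estimates. Other members were above 0 there, among them Krt7 at 2.23 FPKM, Cldn1 at 0.801, Krt8 at 0.712, Krt19 at 0.684, Cldn10 at 0.344 and Krt18 at 0.327. The source of Krt80 and Cldn15 in blood was not tested.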

How the data were processed

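RNA was measured in 3 sorted populations, 1 library each. Cufflinks 2.1.1, TopHat2 2.0.8, Bowtie2 2.1.0 and the mm9 build were used by the authors, per the submitters' processing notes. The settings and the annotation were not given in the sources used here. The deposited values are FPKM estimates by the authors, and no count test was applied to them.

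Groups followed the labels' sort gate, tissue and time. Values below 1e-06 FPKM were set to 0. Ratios used log2(FPKM + 1). Genes with a mean of 1 FPKM or more were compared and called at 4-fold, with no test. Depth was estimated from steps of low values in single-transcript genes over 1500 nt. Transcript lengths came from GENCODE M21, of another build, matched by symbol for 98.7% of genes compared, and promoters from RefSeq GRCm38.p6, also by symbol. The calling step was tested on simulated data. Python 3.11.15, numpy 2.4.6, pandas 2.3.3 and matplotlib 3.10.9 were used.

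Members and lists were chosen with earlier results of these data known. Named members reached 5 FPKM in at least 1 library or were on a short list named regardless of level. Partner genes were named for the 4 largest absolute log2 ratios of each comparison, and cell type lists by their first 2 genes. Some genes that these rules would name are not reported here. Other genes given with a value were chosen after their values were seen. Alternatives were pseudocounts of 0.1 and 5, no filter, a mean of 5 FPKM or more, rescaling to a sum of 1000000, median centring, upper-quartile scaling, a 2-fold threshold and, added after seeing the data, a correction for transcript length in 20 bins and the omission of genes at 0.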

Additional observations from a re-analysis of the deposited data

How the results depend on the processing

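The limits are 1 library per group, an unknown part of other cells, zeros that can be failed estimates, and a nasal neutrophil library less deep than the others. No paired analysis was possible because each group held 1 library. No count or median in nasal against blood or DP against blood neutrophils changed direction, but their sizes moved.

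Percentages in brackets below are the shares of all genes called under the same setting. For nasal against blood neutrophils, 15 members were at least 4-fold higher (13.1%). The number was 26 with a pseudocount of 0.1 (26.9%), 9 with 5 (4.4%) and 25 at a 2-fold threshold (33.5%). It was 6 of 18 without genes at 0 (11.1%). The 1 lower member (3.23%) became 3 at 2-fold (12.8%). The median of 1.93 was 4.49 with a pseudocount of 0.1, 0.71 with 5, 0.19 with no filter and 4.32 at a mean of 5 FPKM or more. For DP against blood neutrophils, 18 were higher (24.0%). The number was 8 with a pseudocount of 5, 9 at a mean of 5 FPKM or more, 10 with centring, 28 at 2-fold and 5 without genes at 0. The 2 lower members (3.57%) became 1 with a pseudocount of 5 (2.4%) and 1 at a mean of 5 FPKM or more (5.55%). The median of 2.39 was 5.15 with a pseudocount of 0.1, 0.95 with 5, 0.12 with no filter, 4.74 at a mean of 5 FPKM or more, 1.44 with centring and 1.4 without genes at 0. Over all genes, the median with no filter was 0.06 in nasal against blood and 0.16 in DP against blood neutrophils.

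For DP against nasal neutrophils, the 1 higher member became 4 with a pseudocount of 0.1, 7 at 2-fold, and 0 with a pseudocount of 5, at a mean of 5 FPKM or more, with centring, with upper-quartile scaling and with the length correction. The 1 lower member (3.62%) became 2 with a pseudocount of 0.1 (5.4%), with rescaling to a sum of 1000000 (4.3%) and with upper-quartile scaling (6.8%). It became 3 with centring (7.2%), 4 at 2-fold (11.3%) and 0 with a pseudocount of 5 (1.9%). The median of 0.2 was 0.13 with a pseudocount of 5, 0 with no filter and 0.31 at a mean of 5 FPKM or more. It changed sign to -0.37 both with centring and with upper-quartile scaling. The cause of these changes was not tested. Over all genes the split of higher and lower in this comparison was 903 and 388 as deposited, 360 and 773 with centring and 350 and 734 with upper-quartile scaling. In DP against blood neutrophils it was 2577 and 383, 1116 and 971, and 1594 and 788, and in nasal against blood neutrophils 1408 and 346, 968 and 609, and 1457 and 459. Of 661 values of named members under alternatives, 597 stayed on their side of the threshold, 41 newly passed it and 23 no longer did. The sign changed in 17 of them, all below 4-fold and all in DP against nasal neutrophils: Cldn3, Cldn4, Cldn5, Cldn25, Epcam, Gja1, Krt7 and Krt15 went from higher to lower in DP with centring and with upper-quartile scaling, and Cldn3 also with the length correction.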
